A study of Mus musculus with 4 samples.

Results

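The regions described here are H3K27ac domains that formed a single broad peak in differentiating erythroid cells where the progenitor cells had several separate peaks. They are called joined domains below. Histone H3 acetylated at lysine 27 (H3K27ac) was mapped by chromatin immunoprecipitation and sequencing (ChIP-seq), with the antibody Abcam ab4729, in a pair of mouse cell lines of strain 129. G1E cells came from Gata1 knockout embryonic stem cells and were immortalized as a model of erythroid progenitors, and these samples received no treatment. G1E-ER4 cells are the G1E subline that carries, from a virus, a GATA1-estrogen receptor hybrid protein (GATA1-ER), which estradiol (E2) turns on. For the samples used here they had received estradiol at 10 nM over 24 h, and this group is called G1E-ER4+E2. All samples thus share the loss of the native Gata1 gene, and the lines differ in the transgene as well as in the hormone. Each line had 2 replicates, and no label says that these came from separate cultures. The authors deposited 1 peak list for each replicate and 1 pooled list for each line.

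The joined domains were selected on the positions in both pooled lists. A peak of the G1E-ER4+E2 pooled list counted as a joined domain when it was under 30 kb wide, overlapped 2 or more G1E pooled peaks by at least 1 bp and had 50% or more of its length covered by them. Of 26384 G1E-ER4+E2 pooled peaks, 25543 were under 30 kb, and 1196 of these (4.68%) were joined domains. Since the rule used these positions, the counts, the gaps and the coverage are a description, and no test was made on them. The label of the set holds as far as the rule goes, because each domain does overlap several G1E peaks. Such an overlap can be a small part of a G1E peak. With 50% of each joined peak required inside the domain, the rule gave 868 domains. Whether the gaps between these peaks also closed in single replicates is given below.

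H3K27ac is laid down by the acetyltransferases CBP and EP300 and is removed by histone deacetylases. It marks the nucleosomes beside active promoters and active enhancers, and neighbouring active elements of a locus often lie in 1 long stretch of the mark. In erythroid cells GATA1 works with TAL1 and the cofactor FOG1 at many of these elements, and restoring GATA1 in G1E cells starts their maturation. A broad peak caller joins enriched windows into an island when the unmarked stretch between them is short, so that a gap between peaks depends on both the chromatin and the caller.

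The study brought together 273 DNA segments tested as enhancers, from its own assays and from earlier work. Of these, 19 lay in joined domains, in 18 of them. These 19 segments are the named sites of the set, and 5 of them are known by TAL1 names. Their ends are given by the primers of the study, shown here in 5′ to 3′ direction because they define the tested element. The placement of a segment in a domain comes from the study's mm9 positions, and the primers were not mapped. Each line gives the forward and then the reverse primer, all in lower case since no part of a primer is singled out.
TAL1_4858 forward: gagaagtagaaatagagactagattgggtg
TAL1_4858 reverse: agccttcttcccagcttctccttt
TAL1_127 forward: cagctcgatctatcaatccacag
TAL1_127 reverse: tccgatggcttgctcctgctat
TAL1_758 forward: atatccttgtgcttctgaccctcc
TAL1_758 reverse: gtaagatggagctcttggtgtcct
TAL1_4371 forward: tggcatggttaattccttgggctg
TAL1_4371 reverse: aggtgtcccagtgagtttagcctt
TAL1_1529 forward: aaacacgtgacctccatggtctgt
TAL1_1529 reverse: ccgcctgtctcctcactaacataga

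All 19 segments lay wholly in a joined G1E peak, and 0 lay in a filled gap. The distance from a segment to the nearest filled gap ran from 445 bp (GHP311) to 9072 bp (GHP152), with a median of 3926 bp. The tested elements of the joined domains were thus inside an H3K27ac peak of the G1E pooled list. Over all joined domains 74.3% of the length was G1E peak and only 14.2% lay in filled gaps, so few of 19 segments could be looked for in a gap, and nothing is read from the count of 0. Of the 18 domains 11 were on chromosome 7, which held 82 of all 1196, and these 11 held GHP or GHN segments. The segments had been chosen for testing, in the study or in earlier work, so nothing is read from this count. In 4 of the 18 domains 3 G1E peaks were joined, and in the others 2.

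The domain with TAL1_4858 spanned chrX:7408601-7426600 in mm9, 18000 bp wide. It joined G1E peaks of 3400 and 8200 bp across a gap of 4000 bp, and the segment lay in the wider peak, 2247 bp from the gap. Its enrichment, which is the authors' fold over background on a linear scale, was 14.9, at percentile 99.0 of the G1E-ER4+E2 pooled list. G1E-ER4+E2 replicates 1 and 2 each had 1 peak across the gap, with enrichments of 14.8 and 21.0 in their own lists. G1E replicate 1 had 2 peaks there and G1E replicate 2 had 3, and none crossed the gap. The replicate lists thus divided by cell line at this domain.

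The domain with GHP304 spanned chr7:134219801-134248600 and joined 3 G1E peaks of 1200, 14800 and 2400 bp. The gaps between them were 800 and 6800 bp. The segment lay in the middle and widest peak, which had an enrichment of 18.5 (percentile 93.7 of the G1E list), while the outer peaks were at percentiles 31.4 and 22.5. One peak joined them all in both G1E-ER4+E2 replicates and in neither G1E replicate.

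The domain with TAL1_758, chr11:77868601-77896400, also joined 3 G1E peaks, of 2000, 12200 and 4800 bp, over gaps of 1000 and 1200 bp. It was 1 peak in each G1E-ER4+E2 replicate, with enrichments of 15.5 and 19.5, and 2 peaks in each G1E replicate. The domain with TAL1_127, chr1:88365801-88392600, joined peaks of 14000 and 8800 bp over 1400 bp, again in both G1E-ER4+E2 replicates and in neither G1E replicate. These G1E peaks were nearly alike in strength, at percentiles 77.7 and 84.5. In all, 7 of the 18 domains with a tested segment had 1 joined peak in both G1E-ER4+E2 replicates and in no G1E replicate. Over all joined domains this held for 362 (30.3%), and nothing is read from the count of 7. The others of these 7 held GHP275, GHP159 and GHP73.

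The other domains with a tested segment had other patterns over the replicates. The domain with GHP311 (chr7:135060401-135069600, gap of 2400 bp) was joined in both G1E-ER4+E2 replicates and in G1E replicate 1. The domains with GHP270, GHP152 and GHP118 were joined in 1 G1E-ER4+E2 replicate and in no G1E replicate. The segment Zfpm1NC1 is named for Zfpm1, which encodes FOG1, the cofactor that binds GATA1. Its domain, chr8:124892001-124911800, joined peaks of 5000 and 14200 bp over a gap of 800 bp, the narrowest in the lists. G1E-ER4+E2 replicate 2 had 1 peak there, while replicate 1 had 3 peaks and did not join the G1E peaks. The segment Hipk2NC1 is named for Hipk2, a protein kinase gene. Its domain, chr6:38771001-38790200, joined peaks of 3000, 1600 and 7000 bp over gaps of 3000 and 1800 bp, and again only G1E-ER4+E2 replicate 2 had them in 1 peak. The domain of TAL1_4371 (chr8:37342201-37356600, gap of 1800 bp) was joined in G1E-ER4+E2 replicate 2 and in no other replicate. The domain of TAL1_1529 (chr15:12821601-12841800, gap of 1000 bp) was joined in G1E-ER4+E2 replicate 2 and in G1E replicate 1.

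At 2 of the 18 domains no G1E-ER4+E2 replicate had the joined peak, beside 27.3% of all joined domains. One holds both GHP10 and GHN37 (chr7:73329801-73348000, gap of 5400 bp), with 2 peaks in every replicate, and the other holds GHP196 (chr7:112880601-112901400, gap of 4800 bp). The domain with GHP68, chr7:86497401-86510600, went against the label of the set. Both G1E replicates had 1 peak over it, with enrichments of 4.36 and 4.76, although the pooled G1E list had a gap of 1200 bp there. G1E-ER4+E2 replicate 1 had 1 joined peak, of enrichment 2.53, and G1E-ER4+E2 replicate 2 had 3 peaks. The single replicates there did not divide by cell line in the direction of the pooled lists.

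**Figure D1:**
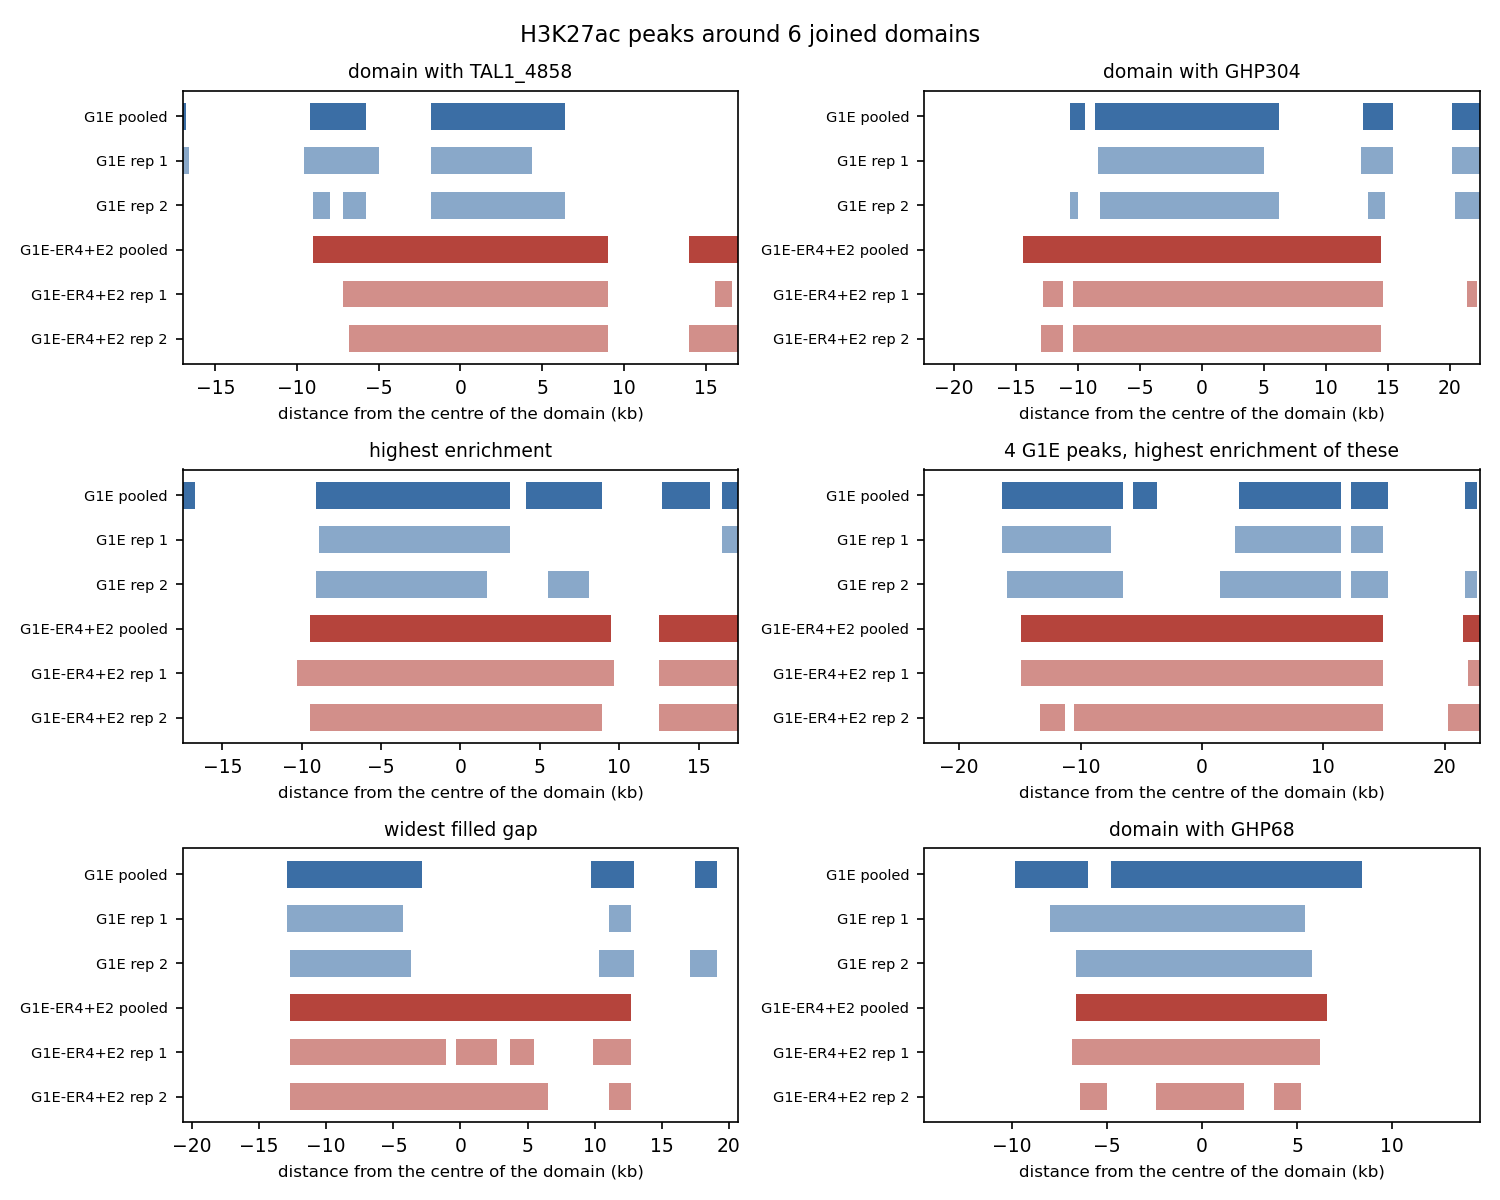
H3K27ac peaks around 6 joined domains. Each row is 1 list (blue for G1E, red for G1E-ER4+E2, pale for single replicates), bars are peaks, and the horizontal axis is the distance in kb from the centre of the domain, cut 8 kb beyond its ends. The domains with TAL1_4858 and GHP304 and that of highest enrichment had 1 peak over the gap in both G1E-ER4+E2 replicates, the domain with the widest gap had it in neither, and the GHP68 domain was 1 peak in both G1E replicates.

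Across the whole set, joined domains were pairs in most cases. A pair of G1E peaks was joined in 1036 domains (86.6%), 3 peaks in 146 (12.2%) and 4 peaks in 14 (1.17%). The domains joined 2533 G1E pooled peaks, 10.4% of the 24332 in that list, of which 33 were shared by 2 domains. They were 1800 to 29800 bp wide, with a median of 15000 bp and quartiles of 10000 and 21400 bp, and covered 18.8 Mb, 9.36% of the length of the G1E-ER4+E2 pooled list. The rest of this length, beside the G1E peaks and the filled gaps, was the 11.4% in flanks beyond the outermost G1E peak.

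The joined peaks were unequal in width and strength. The widest joined peak of a domain had a median width of 9000 bp and the narrowest 3600 bp, beside 3800 bp over all G1E pooled peaks. In 499 domains (41.7%) the widest was less than 2 times the narrowest, and in 40 (3.34%) it was 10 or more times the narrowest. The strongest joined peak had a median enrichment of 10.6 and a median percentile of 73.3 in the G1E list (quartiles 55.1 and 86.5). The weakest had a median enrichment of 2.43 and a median percentile of 17.2 (quartiles 7.66 and 37.7). The widest peak was also the strongest in 879 domains (73.5%). Taking the strongest and the weakest of several fixes their order and also draws the values apart. No other pairs of G1E peaks were set beside them, so the values are a description only.

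The single G1E replicates held the strong and the weak joined peaks to different extents. The peaks were ranked by enrichment in the pooled list that the same replicates went into, so this difference follows in part from the ranking. Of the weakest joined peaks 59.6% overlapped a peak in both G1E replicates and 12.1% in neither. Of the strongest these shares were 96.0% and 0.669%. Over all 24332 G1E pooled peaks they were 78.0% and 6.51%, and over all joined peaks 77.5% and 6.44%, so that joined peaks as a whole stood close to the list.

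The domains held 1370 filled gaps with 2.67 Mb in all. A gap had a median width of 1200 bp, with quartiles of 800 and 2400 bp. The smallest gap in every list was 800 bp and all positions fell on a grid of 200 bp, so no list held a narrower gap. Gaps of that width made up 406 of the 1370 (29.6%). Gaps of up to 1000 bp were 618 (45.1%), gaps of up to 2000 bp were 948 (69.2%), and 78 were over 5000 bp, the widest 12600 bp. Most joins thus rested on a stretch of a few grid steps.

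All gaps between neighbouring G1E pooled peaks, whether or not in a domain, give the setting for these widths. There were 24312, with a median width of 16000 bp, and 3109 (12.8%) lay under 1 G1E-ER4+E2 pooled peak. This share was 49.4% for gaps of 800 to 1000 bp, 38.1% for 1200 to 2000 bp, 22.7% for 3200 to 5000 bp and 5.06% for over 10 kb up to 20000 bp. In the other direction, 1753 of 26363 gaps between G1E-ER4+E2 pooled peaks (6.65%) lay under 1 G1E pooled peak, with 23.2%, 15.6%, 5.45% and 0.320% in the same width classes. Counted per gap, G1E-ER4+E2 peaks therefore spanned a larger share than G1E peaks in each of the 6 width classes up to 20000 bp. The G1E-ER4+E2 list also covered more of the genome, 201 Mb against 140 Mb, with a median peak width of 4600 bp against 3800 bp, and the part of this difference in the shares was not tested.

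**Figure D2:**
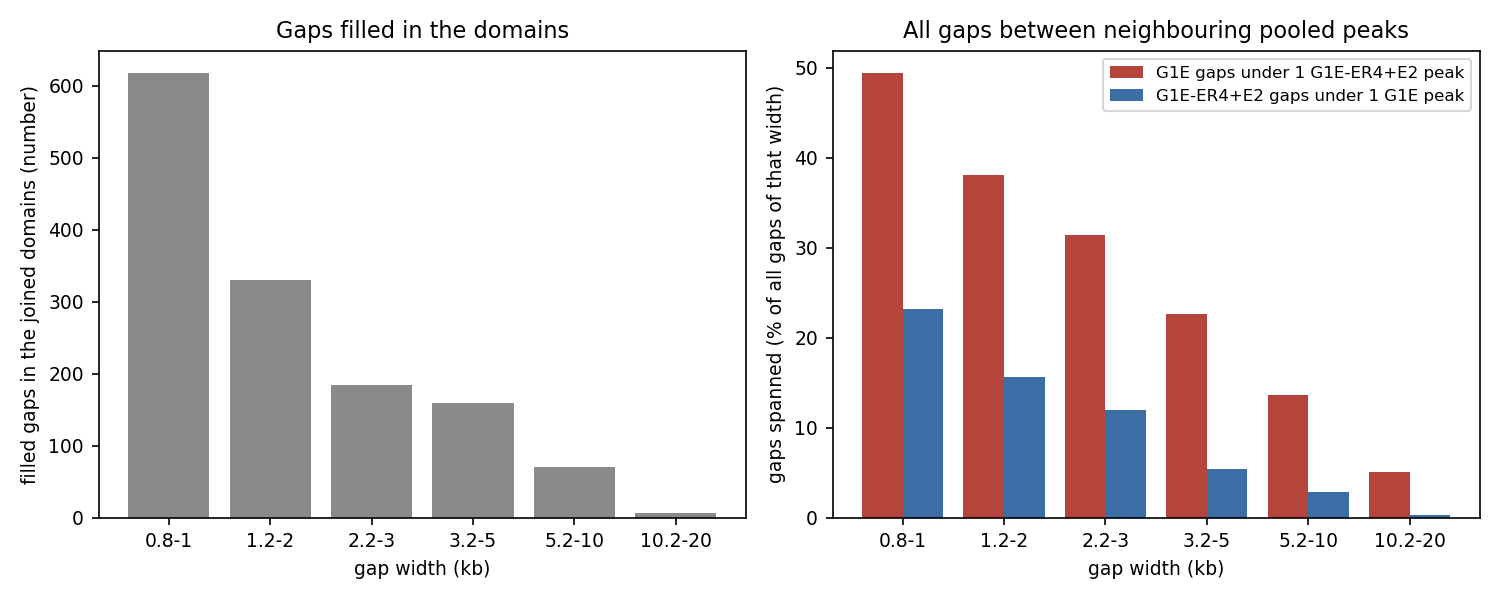
Left, the number of filled gaps in the joined domains by gap width in kb. Right, the percentage of all gaps of each width between neighbouring pooled peaks that 1 peak of the other line spanned, with red for G1E gaps (49.4% in the narrowest class) and blue for G1E-ER4+E2 gaps (23.2%), both falling with gap width.

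Outside the gaps, the outer borders of the domains moved little in the median and in either direction case by case. The median outward shift of a border was 0 bp. In 94 domains (7.86%) both borders lay over 1 kb further out than those of the joined G1E peaks, in 421 (35.2%) 1 border did, and in 681 (56.9%) none did. In 554 domains (46.3%) at least 1 border lay over 1 kb inside the G1E border. Both borders were within 400 bp of the G1E borders in 93 (7.78%). Of the 4.82 Mb in the domains that was not in a G1E pooled peak, 55.5% was in the gaps and 44.5% in the flanks. The domains thus gained sequence between the joined peaks and, to a smaller extent, beside them. At some ends the G1E peak reached beyond the domain. Whether another G1E-ER4+E2 peak lay over that part was not counted, so it is not called lost.

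The single replicates were examined next. A domain was called joined in a replicate when 1 peak of its list overlapped both the first and the last of the joined G1E peaks and so covered every gap. This was so for 662 domains (55.4%) in G1E-ER4+E2 replicate 1 and for 663 (55.4%) in replicate 2. It was so for 164 (13.7%) in G1E replicate 1 and 56 (4.68%) in G1E replicate 2. The G1E-ER4+E2 replicates went into the pooled list that defined the domains and the G1E replicates into the list that defined the gaps, so this order follows in part from the rule and is no independent evidence. Among the 1196 domains, 456 (38.1%) were joined in both G1E-ER4+E2 replicates, 206 in replicate 1 only, 207 in replicate 2 only and 327 (27.3%) in neither.

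Of the domains, 362 (30.3%) were joined in both G1E-ER4+E2 replicates and in neither G1E replicate. Another 94 were joined in both G1E-ER4+E2 replicates and in a G1E replicate too, 38 in a G1E replicate but in no G1E-ER4+E2 replicate, and 9 in both G1E replicates. In 289 no replicate had the joined peak, which only the pooled list showed. Where a replicate was not joined it had 2 or more peaks in most cases. There were several peaks in 382 domains (31.9%) for G1E-ER4+E2 replicate 1 and 338 (28.3%) for replicate 2, against 752 (62.9%) and 771 (64.5%) in the G1E replicates. A domain without any peak was rare, from 19 domains in G1E-ER4+E2 replicate 1 to 35 in G1E replicate 2.

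**Figure D3:**
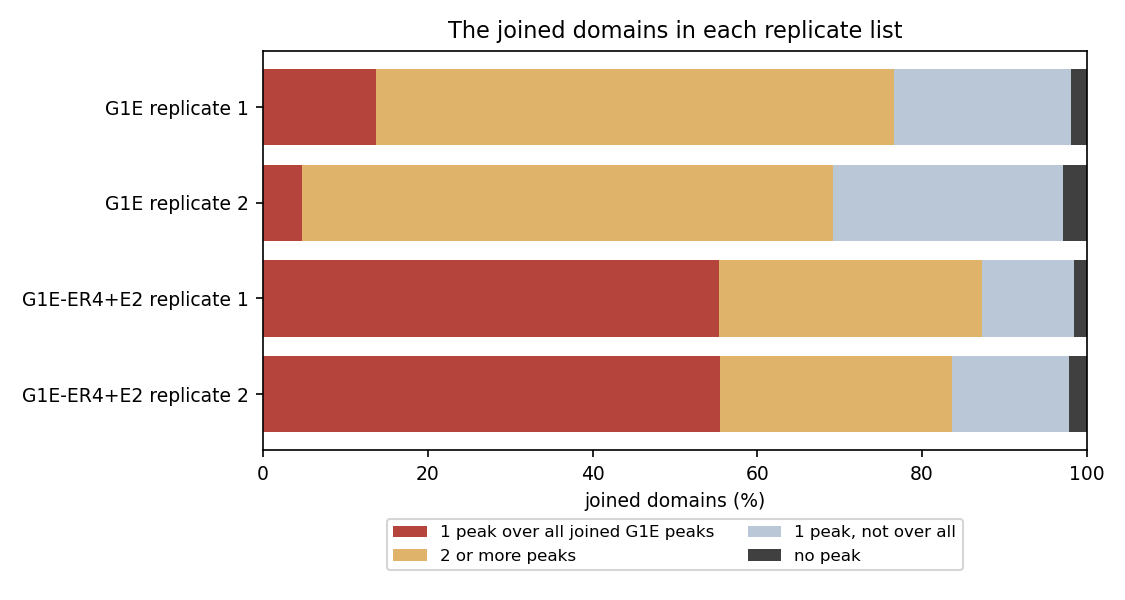
State of the 1196 joined domains in each of the 4 replicate lists, as a percentage of domains. The red part (1 peak over all joined G1E peaks) is 55.4% in both G1E-ER4+E2 replicates, 13.7% in G1E replicate 1 and 4.68% in G1E replicate 2.

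The gaps themselves gave similar values. A peak covered the whole gap for 61.4% and 61.3% of the 1370 gaps in G1E-ER4+E2 replicates 1 and 2, and for 15.1% and 5.04% in G1E replicates 1 and 2. There was no peak in either G1E replicate over 714 gaps (52.1%), and full cover in both G1E-ER4+E2 replicates over 611 (44.6%). Both held for 319 gaps (23.3%). These are the gaps for which all single lists showed the change that the pooled lists showed.

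Narrow gaps were joined more often in every line. Where the widest gap of a domain was 800 to 1000 bp, 46.9% of 499 domains were joined in both G1E-ER4+E2 replicates, and 33.3% of the 499 were joined in at least 1 G1E replicate, whatever their state in G1E-ER4+E2 cells. For widest gaps of 1200 to 2000 bp these shares were 35.2% and 12.8% of 298 domains, for 2200 to 3000 bp 35.7% and 3.57% of 168 domains, and for 5200 to 10000 bp 23.9% and 0% of 71. Of the 7 domains with a gap over 10 kb, 0 were joined in both G1E-ER4+E2 replicates. The share joined in a G1E replicate was thus under 4% only from 2200 bp upward. The domains that joined 3 or more peaks were joined in both G1E-ER4+E2 replicates in 21.3% of 160 cases, against 40.7% of the 1036 that joined 2.

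To see how often peaks join without a change of cell line, the rule was applied between lists of the same line. Between the replicate lists, 1842 of 28679 G1E-ER4+E2 replicate 1 peaks under 30 kb (6.42%) joined peaks of replicate 2, and 2428 of 26306 replicate 2 peaks (9.23%) joined peaks of replicate 1. In G1E cells the counts were 1260 of 21320 (5.91%) for replicate 1 over replicate 2 and 862 of 23298 (3.70%) for replicate 2 over replicate 1. The 4.68% of G1E-ER4+E2 pooled peaks that joined G1E pooled peaks lies inside this range of 3.70% to 9.23% between replicate lists. It was above 1 of the 4 replicate shares, that of G1E replicate 2 over replicate 1, and below the other 3, although replicate lists are not pooled lists. Over the replicates of its own line, the G1E-ER4+E2 pooled list joined peaks in 12.1% (replicate 1) and 9.85% (replicate 2) of its peaks, and the G1E pooled list in 5.12% and 5.68%. Replicate peaks joined peaks of their own pooled list in 0.854% to 2.92% of cases. The share within a line thus depended on which lists were set against each other.

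The rule was also applied with the lists exchanged. Then 1115 of 24015 G1E pooled peaks under 30 kb (4.64%) joined 2 or more G1E-ER4+E2 pooled peaks. These had a median width of 12000 bp, a median gap of 1000 bp over 1257 gaps, and 125 (11.2%) joined 3 or more. They were joined in 69.4% and 52.4% of cases in G1E replicates 1 and 2 and in 5.83% and 7.35% in G1E-ER4+E2 replicates 1 and 2. Of them, 385 (34.5%) were joined in both G1E replicates and in neither G1E-ER4+E2 replicate, the mirror of the 362 above. Joining thus occurred in both directions between the lines at close to the same frequency. Which direction was more frequent changed with the setting. With 75% coverage required there were 609 joined domains and 702 in the exchanged direction, and with both lists held to the same covered length 944 and 468. For a single replicate of each line the rule gave 3.29% to 4% for G1E-ER4+E2 peaks over G1E peaks and 4.06% to 7.23% for G1E peaks over G1E-ER4+E2 peaks.

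**Figure D4:**
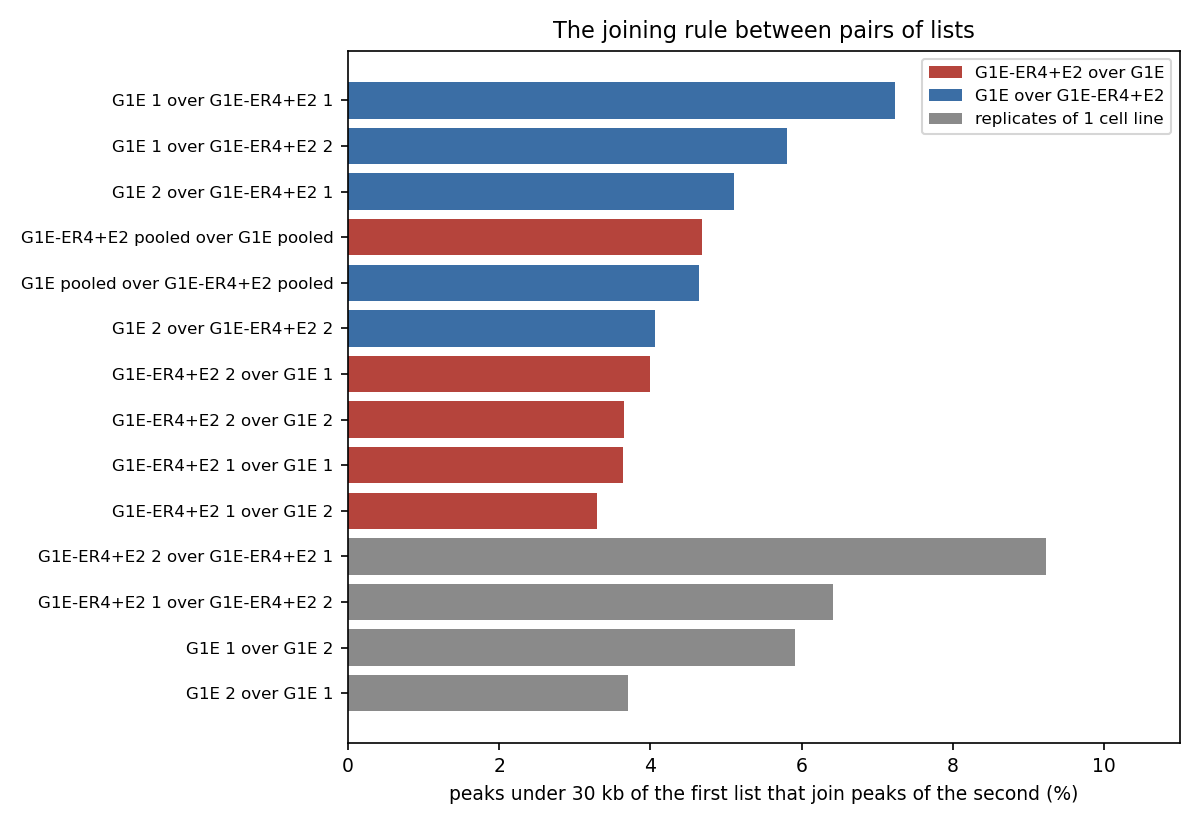
Percentage of peaks under 30 kb in the first list of each pair that joined 2 or more peaks of the second by the rule. Red bars are G1E-ER4+E2 over G1E, blue bars G1E over G1E-ER4+E2, and grey bars replicates of 1 line, which ran from 3.70% to 9.23% around the 4.68% of the joined domains.

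Within the G1E-ER4+E2 pooled list, the joined domains were of more than average enrichment. Enrichment was compared within a list only, by its percentile, as the depth of the lists is unknown. The domains had a median enrichment of 4.76 (quartiles 2.89 and 6.65, range 1.17 to 21.1), where the whole list had a median of 2.80. Their median percentile was 73.5, and 914 (76.4%) lay above the median of the list. The top 10% of the list held 176 of them (14.7%) and the bottom 10% held 47 (3.93%). Wider peaks had higher median percentiles, and the joined domains were wide, so peaks of like width are the closer comparison.

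The joined domains were below peaks of the same width over a single G1E peak. Among peaks of under 5000 bp the median percentile was 27.8 for 49 joined domains and 60.6 for 6075 peaks that were covered to 50% or more by 1 G1E peak. At 10000 to under 15000 bp these were 72.2 (287 domains) and 79.1 (945 peaks), and at 25000 to under 30000 bp 81.3 (149) and 86.1 (76). The joined domains were lower in each of the 6 width classes, with the widest distance in the narrowest peaks. The share of G1E-ER4+E2 peaks that were joined domains rose from 0.350% under 5000 bp to 38.6% at 25000 to under 30000 bp, as a wider peak can overlap more G1E peaks. Peaks of 30 kb or more that otherwise met the rule, 420 in number, had a median enrichment of 6.60 and a median percentile of 85.1. The 356 peaks under 30 kb over 2 or more G1E peaks with less than 50% covered had 4.04 and 67.4.

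A domain could be set beside its own G1E peaks by the percentile in each list. In 606 domains (50.7%) the percentile was at or above that of the strongest joined G1E peak, in 505 (42.2%) between the weakest and the strongest and in 85 (7.11%) at or below the weakest. The ranks come from unlike lists, with median enrichments of 2.80 (G1E-ER4+E2) and 5.82 (G1E). The domains were also wider, with a median of 15000 bp against 7700 bp for the strongest joined peaks, and wider G1E-ER4+E2 peaks ranked higher. This placing is therefore no measure of a change in signal. Domains joined in both G1E-ER4+E2 replicates had a median percentile of 79.9, those joined in 1 replicate 71.2 and those joined in none 65.9.

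**Figure D5:**
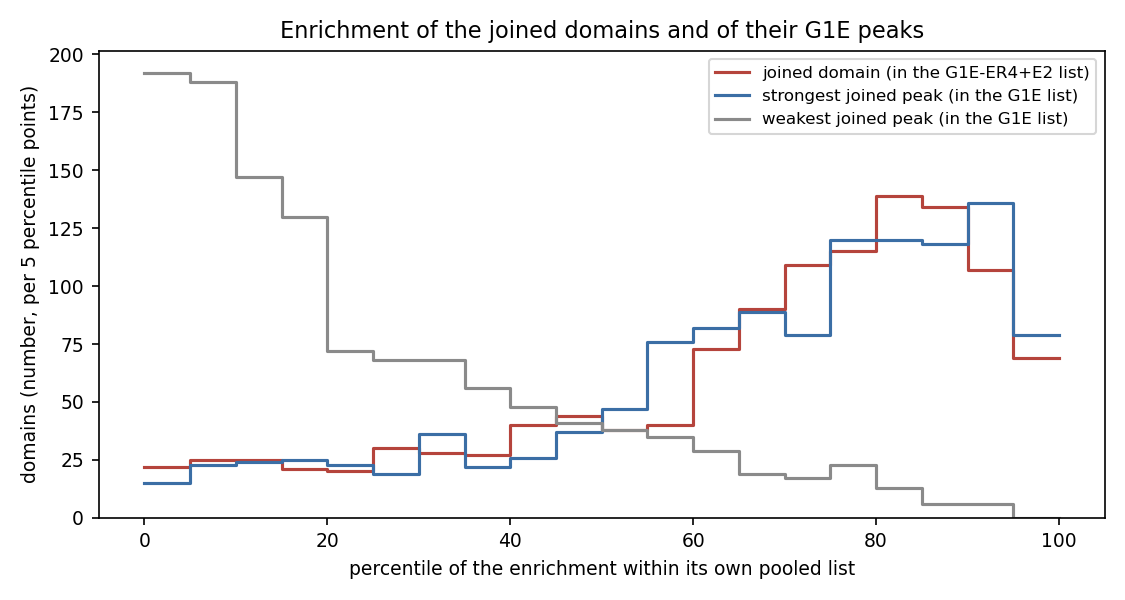
Number of joined domains by the percentile of enrichment, in steps of 5 percentile points, for the domain in the G1E-ER4+E2 pooled list (red) and for its strongest (blue) and weakest (grey) joined peak in the G1E pooled list. The domains and the strongest peaks peak at high percentiles (medians 73.5 and 73.3) and the weakest peaks at low ones (median 17.2).

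The domains at the ends of these ranges show how the members differ. The highest enrichment, 21.1, was at chr3:51027201-51046200, where G1E peaks of 12200 and 4800 bp were joined over 1000 bp. The wider G1E peak was at percentile 83.9 of its list and the narrower at 3.76. Both G1E-ER4+E2 replicates had 1 joined peak, with enrichments of 20.5 and 31.3, and neither G1E replicate had one. The next, at chrX:148449201-148463400 with an enrichment of 20.7, joined peaks of 6800 and 2200 bp over 3600 bp and had the same pattern over the replicates. So did chr10:59334201-59351200, with an enrichment of 15.9, which joined 3 G1E peaks of 4000, 3800 and 5200 bp and was 1 peak in each G1E-ER4+E2 replicate and 3 peaks in each G1E replicate. The domains at chrX:72621201-72635200 and chr5:116455801-116480600, with enrichments of 17.8 and 16.8, were joined in 1 G1E-ER4+E2 replicate each and in no G1E replicate. All 5 domains at the top were thus joined in at least 1 G1E-ER4+E2 replicate and in no G1E replicate. Over all joined domains, 82.4% were joined in no G1E replicate and 27.3% in no G1E-ER4+E2 replicate. The 5 were picked by enrichment in the list that the G1E-ER4+E2 replicates went into, so nothing is read from this count.

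Of the 14 domains that joined 4 G1E peaks, the most enriched was chr6:70718201-70748000, at 8.18. It joined peaks of 10000, 2000, 8400 and 3000 bp, of which the third was the strongest, at percentile 93.8, and the second the weakest, at 12.7. The gaps summed to 8400 bp, with the widest at 6800 bp. Both G1E-ER4+E2 replicates had the joined peak, and each G1E replicate had 3 separate peaks. Of the next 4 by enrichment, at chr5:108690201-108714600, chr16:91360401-91389600, chr15:58708801-58733000 and chr17:26894601-26924000, the first 3 were joined in 1 G1E-ER4+E2 replicate and the last in none.

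The domain with the widest gap, chr13:95127801-95153200, joined peaks of 10000 and 3200 bp over 12600 bp and was covered to 50.4% by them. No single replicate joined it. G1E-ER4+E2 replicate 1 had 4 peaks there and replicate 2 had 2, while each G1E replicate had 2. The other domains with the widest gaps were chr16:11195601-11219000 (11600 bp), chr2:156602201-156631200 (11400 bp), chr1:182733201-182756800 (11000 bp) and chr2:20861201-20889800 (10600 bp), and none of these was joined in a single replicate. The largest filled lengths from more than 1 gap were 11600 bp at chr15:102308801-102334600 and 11200 bp at chr11:101155801-101182200, again without a joined peak in any replicate. Peaks of the G1E-ER4+E2 replicates nevertheless covered much of these gaps. Of the gaps over 10 kb, that of 10400 bp in the chr15:102308801-102334600 domain was covered whole by 1 peak of G1E-ER4+E2 replicate 2, which ended at the start of the last G1E peak and so did not overlap it. The 12600 bp gap was covered to 52.4% in G1E-ER4+E2 replicate 1 and 74.6% in replicate 2, and to 0% in both G1E replicates.

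The lowest enrichments were 1.17 at chr7:87457601-87462600, 1.22 at chr1:4756001-4765400 and 1.22 at chr14:122381801-122392200. At the first, G1E peaks of 5600 and 1000 bp were joined over 1200 bp in G1E-ER4+E2 replicate 2, with an enrichment there of 1.24, and not in replicate 1. At the second, G1E replicate 1 had the joined peak, G1E replicate 2 had no peak and neither G1E-ER4+E2 replicate was joined. The third was joined in no replicate.

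At the limits of the rule, members and other peaks were close to each other. The widest members were 29800 bp, and the nearest peaks left out for their width were 30000 bp at chr5:104181401-104211400 (92.0% covered) and 30200 bp at chr1:163219401-163249600 and chr4:100884801-100915000. A coverage of exactly 50% was found for 16 members, such as chr11:119288601-119298600, and the nearest peaks left out reached 49.5% at chr2:30217801-30240000 and 49.6% at chr16:17623401-17650400.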

How the data were processed

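H3K27ac ChIP-seq peaks were taken as the authors deposited them, as 4 replicate lists and 2 pooled lists. The submitters' processing notes name bcl2fastq 1.8.4, Bowtie 1.0.0, SICER 1.1 and mm9. The control, the way of pooling and the caller's gap setting, which bears on the narrowest gap of 800 bp and on what counts as joined, are not given in the sources used here. For each peak the authors deposited the fold enrichment (a linear ratio) with its p-value and q-value. The highest q-value in a list was 0.00999. The p-values were not used. Sequencing depth is unknown, since no list gives reads, and no interval on reads was computed. Exact binomial intervals over domains served only to judge how far shares moved under the alternatives.

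Overlaps, gaps and percentiles were computed in Python 3.11.15 with NumPy 2.4.6, pandas 2.3.3 and SciPy 1.17.1, and drawn with Matplotlib 3.10.9. Starts are printed 1-based. A gap is the stretch between neighbouring joined G1E peaks. The rule was tested on simulated lists of 500 peaks, where it recovered 200 of 200 joined domains. No statistical test was made, since the rule used the pooled lists and each group had 2 replicates.

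Members, lists and summaries were chosen with earlier results of these data known. The named regions were the 5 domains joining the most G1E peaks (ties by enrichment), the 5 with the largest filled length, the 5 with the widest gap, the 5 with the highest and 3 with the lowest enrichment, those nearest the limits of the rule, and every domain with a tested segment. Positions and primers of the segments are the study's, on mm9. No mm9 genome or annotation was used here, so that genes and gap sequences were not analysed.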

Additional observations from a re-analysis of the deposited data

How the results depend on the processing

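Of 113 values recomputed under 13 alternatives, 74 stayed within 1.5 times the value reported (counts), within its 95% Clopper-Pearson interval (shares) or within the SD over the 4 alternatives that leave out a replicate (medians). With 75% coverage required, 609 domains with 683 gaps were left, the median gap was 1000 bp, 11.3% joined 3 or more and the exchanged rule gave 702. With 25%, the median gap was 1400 bp and the median percentile 71.7. An upper width of 20 kb gave 874 gaps, 5.81% joining 3 or more and percentile 68.6. Without an upper width there were 2301 gaps (median 1400 bp), 27.5% joining 3 or more, 52.3% joined in G1E-ER4+E2 replicate 1 and percentile 77.7. With 50% of each joined peak inside the domain, 60.1% were joined in replicate 1, 62.2% in replicate 2 and 44.9% in both, with percentile 76.8 and 612 in the exchanged direction. Peaks at or above the median enrichment of their list gave 199 domains, 206 gaps (median 1600 bp), 3.52% joining 3 or more, percentile 70.2 and 373 exchanged. Merging peaks under 1 kb apart first gave a median gap of 1800 bp, 9.86% joining 3 or more and 712 exchanged. With the G1E-ER4+E2 list cut by enrichment to the covered length of the G1E list, 60.0% and 60.8% were joined in replicates 1 and 2. The share joined in both was 44.1%, the percentile 61.3 and the exchanged count 468. The percentiles of 61.3 here and 70.2 above were ranks within the cut lists, unlike the 73.5 of the uncut list.

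With 1 replicate list of 1 line in place of its pooled list, the domains numbered 1025 to 1139, the gaps 1168 to 1320, the median gap 1200 to 1400 bp and those joining 3 or more 10.7% to 14.8%. The shares joined were 54.9% to 67.2% in replicate 1, 56.9% to 68.3% in replicate 2 and 39.5% to 40.2% in both, the median percentile was 72.9 to 76.6 and the exchanged count 759 to 1629. A share in the replicate that served as the list was not computed, as it is complete by construction. No paired analysis was possible because no result comes from a test.

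The lists hold called peaks, so a gap is a stretch without a call and not a measured absence of H3K27ac. Depth was not known for any list, and its part in the joins was not tested.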

Other observations

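Joined domains lay on every chromosome with peaks other than Y, which had 2 peaks. They made up 1.31% of the 613 G1E-ER4+E2 pooled peaks on chromosome X (8 domains) and from 2.95% (chromosome 16) to 5.94% (chromosome 8) of those on an autosome. Chromosome 11 had the highest number, 108. Another joined domain lay within 50 kb of 314 domains (26.3%), and the median distance to the next was 194 kb. Of the 5 domains with the highest enrichment 2 were on chromosome X.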
